A study of Homo sapiens with 5 samples.

Results

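The BCL2 family decides whether a stressed cell opens its mitochondria and dies, and 10 of its genes were followed here across 5 arrays of irradiated prostate cancer cells. The genes were taken from a fixed set of symbols, chosen with earlier results of these data known. All 10 listed genes carried a named probe set, out of 14812 genes with a named probe set in all. They comprise 5 BH3-only genes (BIK, PMAIP1, BBC3, BAD and BID), 2 pore-forming effectors (BAX and BAK1) and 3 anti-apoptotic genes (MCL1, BCL2L1 and BCL2). The cells were LNCaP, an established androgen-sensitive line of human prostate cancer, grown in 5% fetal bovine serum. They carried a retroviral hairpin under puromycin selection, either a scrambled sequence (shControl, 2 arrays) or a hairpin against RB1 (shRB, 3 arrays). Every culture, the controls included, had been irradiated with 10 Gy and was harvested for total RNA 24 h later, so the arrays compare irradiated populations that differ in the hairpin and say nothing of the response to radiation itself. A single hairpin label stands for RB1 depletion, and the labels state neither whether the populations were clonal or pooled nor whether replicate arrays stem from independent cultures. The p-values thus cover the array-to-array spread alone, which may be technical.

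BCL2 family proteins meet at the outer mitochondrial membrane. BAX and BAK1, once activated, assemble into pores that release cytochrome c, which starts caspase activation. BCL2, BCL2L1 and MCL1 hold BAX and BAK1 in check, and the BH3-only proteins, each tuned to a different stress, bind the anti-apoptotic proteins or activate the effectors directly. PMAIP1, BBC3 and BAX are known transcriptional targets of p53, and several BH3-only genes are known to respond to E2F factors, the transcription factors that the RB protein restrains. Much of the control of this family lies in protein stability, cleavage and phosphorylation, which transcript arrays do not measure.

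RefSeq (GRCh38.p14) held start-site windows of 300 bases, 250 before to 50 after an annotated start, for 8 of the 10 genes, 14 windows in all; BIK and MCL1 were not matched. The sequences of PMAIP1 and BAK1 are shown because, among the genes with a window, these had the largest difference in each direction between the groups. Each line gives the 250 bases before the start, 5′ to 3′ on the strand of the gene, PMAIP1 at chr18:59899746-59899995 on the plus strand and BAK1 at chr6:33580277-33580526 on the minus strand. Capitals mark GGGCGG, the core of the GC box bound by SP1, on either strand, and in BAK1 also a match to the p53 consensus decamer, which overlaps the last base of a GGGCGG.
PMAIP1: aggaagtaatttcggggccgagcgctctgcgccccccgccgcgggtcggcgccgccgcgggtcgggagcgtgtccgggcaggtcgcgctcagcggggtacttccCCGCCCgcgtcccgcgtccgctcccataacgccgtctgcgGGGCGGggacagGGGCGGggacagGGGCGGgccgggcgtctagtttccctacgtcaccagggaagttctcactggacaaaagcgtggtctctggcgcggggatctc
BAK1: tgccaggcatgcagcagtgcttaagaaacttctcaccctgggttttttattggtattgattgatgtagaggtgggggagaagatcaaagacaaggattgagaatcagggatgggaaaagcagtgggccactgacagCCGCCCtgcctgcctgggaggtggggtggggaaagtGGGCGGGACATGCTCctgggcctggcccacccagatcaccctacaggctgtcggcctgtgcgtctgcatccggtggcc
PMAIP1 had 4 matches to GGGCGG in this stretch and 42 CpG dinucleotides in its 300 bases, with a GC content of 71.3%. BAK1 had 2 such matches and 7 CpG dinucleotides at a GC content of 58.7%, equal to the median of all windows (58.7%). GGGCGG was found in 10 of the 14 windows, which belong to 6 of the 8 matched genes, against 45.0% of all 35116 windows. Windows of BAD overlap, as do windows of BID, so some sites were counted more than once and the 14 windows are not independent. The p53 decamer was found in BAK1 alone among the 8 genes, at positions -73 to -64 from the start, and in 6.63% of all windows. The E2F motifs TTTCCCGC, TTTGGCGC and TTTCGCGC, searched on both strands, were in none of the 14 windows and in 2.74% of all windows. These are matches of letters in short windows and describe neither binding nor its absence.

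The deposited values are intensities, and levels below are log2 intensities unless a fold is named. The lowest value of each array lay just above 16, a log2 intensity of 4, which looks like an added constant. It compresses differences of dim genes. Levels of different probe sets are not on a common scale, so differences were taken within each gene, and a level is set against the floor or the median gene only to show how dim a probe set was. Array medians ran from 26.6 to 28.1 on the linear scale. The highest intensities were 9785 and 10038 on shControl replicates 1 and 2, and 9856, 5850 and 4933 on shRB replicates 1 to 3. Values just above 16 made up 4.56% and 2.73% of probe sets on the shControl arrays, and 2.69%, 1.98% and 2.02% on the shRB arrays. The part of these array differences in the results was not tested. RB1, the target of the hairpin, was lower on every shRB array (5.16 to 5.28) than on both shControl arrays (5.70 and 5.81). The RB1 difference of -0.54 (SE 0.14) did not pass (adjusted p = 0.0967), and with 16 taken off the linear values its shRB level was 0.555 of that in shControl. Of 13 luminal prostate markers 7 were measured, all brighter than the median gene, with KLK3, which encodes prostate-specific antigen, at 10.13 in shControl and 10.08 in shRB. Of these 7, 3 were lower on every shRB array, KLK4 (difference -0.35), KRT18 (-0.29) and HOXB13 (-0.17), and none was higher on every shRB array. Over all genes 15.4% were lower and 20.6% higher on every shRB array. Summed luminal intensity, less 16 per gene, was 3509 to 3740 in shControl and 3402 to 3472 in shRB. Of other cell types, the 2 measured fibroblast markers (DCN and LUM) summed to 9.71 to 10.7 in shControl and 5.88 to 10.3 in shRB, and the 2 leukocyte markers (CD14 and LYZ) to 6.94 to 9.96 and 15.8 to 20.8, all close to the floor. The defining markers COL1A1, PTPRC and PECAM1 were not analysed here. Basal markers (3 measured) summed to 43.0 to 61.7 and 41.8 to 61.2, and endothelial ones (3 measured) to 60.7 to 77.7 and 34.4 to 59.7. Within the basal sum, KRT15 was lower on every shRB array (difference -0.40), with KRT5 at 0.19 and KRT14 at 0.05. The endothelial markers did not move together, with VWF lower on every shRB array (difference -0.65), EMCN higher on every shRB array (0.56) and KDR at -0.09. No marker passed limma's test. The part of these markers in the results was not tested.

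The comparison of shRB with shControl addressed which family transcripts differ when RB1 is depleted in irradiated cells. BIK rose in shRB cells, by 1.71-fold on the deposited scale, and was the 1 gene of the 10 that passed limma's test over all genes (threshold 0.05). Over all 14812 genes 1.07% passed, 0.695% as increases and 0.378% as decreases. Differences were positive in 6 of the 10 genes and negative in 4, with a median of 0.24, beside 53.8% positive and a median of 0.02 over all genes. Because the 10 genes were chosen with earlier results of these data known, the shares given here describe them and are no test of the family. The shRB and shControl arrays did not overlap in 5 of the 10 genes, against 36.0% of all genes. Those were 4 with higher shRB arrays (BIK, PMAIP1, BAX and MCL1; 20.6% of all genes) and 1 with lower ones (BAK1; 15.4% of all genes). At an unadjusted p under 0.05 (limma) there were 3 genes, BIK, PMAIP1 and BAK1, beside 18.1% of all genes. PMAIP1, BBC3 and BAX, introduced above as p53 targets, did not pass. The other genes of the 10 were not sorted by p53 control.

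**Figure D1:**
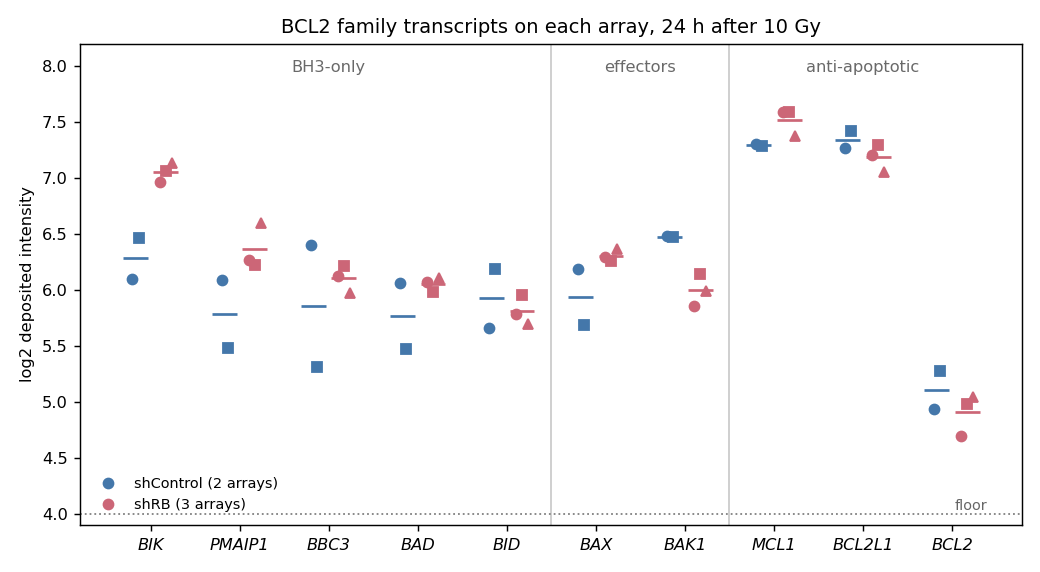
Log2 deposited intensity (y axis) of the 10 genes (x axis, grouped by role) on the 2 shControl and 3 shRB arrays; circles, squares and triangles are replicates 1, 2 and 3, bars are group means, and the dotted line is the floor at 4. The shRB arrays of BIK lie between 6.97 and 7.13, above both shControl arrays, while the shControl arrays of BBC3 stand 1.08 apart with all shRB arrays between them.

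Among the BH3-only genes, BIK encodes a protein that sits largely at the endoplasmic reticulum and binds BCL2 and BCL2L1. It was measured by probe set 16930947 (chromosome 22), at 6.10 and 6.47 on shControl replicates 1 and 2 and at 6.97, 7.07 and 7.13 on shRB replicates 1 to 3. Every shRB array lay above both shControl arrays, with a gap of 0.50 between the groups. The means were 7.06 ± 0.08 (SD, n = 3) and 6.28 ± 0.26 (SD, n = 2), a log2 difference of 0.77 (SE 0.16, 95% interval 0.42 to 1.12, limma adjusted p = 0.0486). In bulk RNA, a larger share of cells with the transcript and more transcript per cell cannot be told apart. With 16 taken off, the shRB level was 1.87-fold that of shControl, and 1.25% of all genes had a larger difference in either direction. The adjusted p lies close to the threshold: BIK did not pass without shControl replicate 1 (log2 0.59, adjusted p = 0.0792) or without shRB replicate 1, 2 or 3 (adjusted p = 0.184, 0.196 and 0.240). A fit without a shControl array rests on 1 control and assumes that it varies like the shRB arrays. BIK passed in 4 of 15 alternative settings, with adjusted p-values from 0.0101 to 0.240 over the 15 and a difference that stayed between 0.59 and 0.95. The share of all genes that passed also differed between settings and is given with them below.

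PMAIP1 encodes NOXA, a p53-induced protein that binds MCL1 and promotes its degradation. Its probe set, 16852683 on chromosome 18, stood at 6.09 and 5.48 in shControl and at 6.27, 6.23 and 6.60 in shRB. The groups did not overlap, but shControl replicate 1 lay only 0.13 below the lowest shRB array. The difference was 0.58 (SE 0.20, 95% interval 0.14 to 1.02) and did not pass (limma adjusted p = 0.166). The size of the difference depended on which shControl array was used. Without shControl replicate 1 the difference was 0.89 and passed (adjusted p = 0.0423), and without shControl replicate 2 it was 0.27 (adjusted p = 0.449).

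BBC3 encodes PUMA, a further p53 target and a BH3-only protein that binds all the anti-apoptotic members. Probe set 16873675 (chromosome 19) gave 6.40 and 5.31 on the shControl arrays and 6.13, 6.22 and 5.98 on those of shRB. The shControl arrays enclosed all the shRB arrays, and their distance of 1.08 was exceeded in 0.641% of all genes. The difference of 0.25 (SE 0.26, 95% interval -0.31 to 0.81, limma adjusted p = 0.647) therefore has no settled direction. It was 0.79 (adjusted p = 0.0441) without shControl replicate 1 and -0.29 (adjusted p = 0.371) without shControl replicate 2.

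BAD, whose protein is held in the cytosol by 14-3-3 proteins when survival kinases phosphorylate it, showed a like split of its controls. It stood at 6.06 and 5.47 in shControl and at 6.07, 5.98 and 6.10 in shRB (probe set 16739872, chromosome 11). The shRB arrays overlapped shControl replicate 1 and lay above replicate 2. The difference of 0.29 (SE 0.18, 95% interval -0.12 to 0.69, limma adjusted p = 0.443) became -0.01 without shControl replicate 2 and 0.58 without replicate 1. BID, which caspase-8 cleaves to link death receptors to mitochondria, was the 1 BH3-only gene with a negative difference. Probe set 16932008 (chromosome 22) gave 5.66 and 6.19 on the shControl arrays and 5.78, 5.96 and 5.69 on those of shRB. All shRB arrays lay between the shControl arrays, and the difference of -0.11 (SE 0.18, 95% interval -0.51 to 0.28, limma adjusted p = 0.777) turned to 0.15 without shControl replicate 2.

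The 2 effectors differed in opposite directions, and neither passed. BAX, which moves from the cytosol to mitochondria on activation and is a p53 target, stood at 6.19 and 5.69 in shControl and at 6.29, 6.26 and 6.36 in shRB (probe set 16863922, chromosome 19). Every shRB array was above both shControl arrays, by as little as 0.07. The difference was 0.37 (SE 0.17, 95% interval -0.01 to 0.75, limma adjusted p = 0.286), and it was 0.11 without shControl replicate 2 and 0.62 without replicate 1.

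BAK1, the effector that resides on the outer mitochondrial membrane and is restrained by MCL1 and BCL2L1, gave 6.49 and 6.47 in shControl and 5.86, 6.14 and 5.99 in shRB (probe set 17018274, chromosome 6). Every shRB array was below both shControl arrays, with a gap of 0.33. The shControl arrays differed by 0.02, and 95.7% of all genes had a wider distance between them. The difference was -0.48 (SE 0.15, 95% interval -0.81 to -0.15), or 1.40-fold lower as deposited and 1.52-fold lower with 16 taken off, and did not pass (limma adjusted p = 0.136). Leaving out each array in turn gave -0.55 to -0.41 with adjusted p-values of 0.149 to 0.354. Without shControl replicate 1 or 2 the difference was -0.47 or -0.49.

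**Figure D2:**
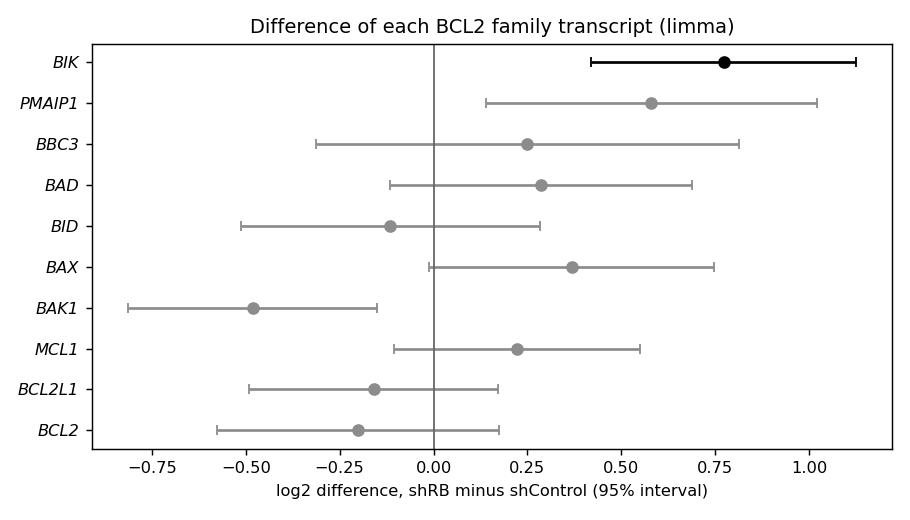
Log2 difference, shRB minus shControl (x axis), with its 95% interval from limma for each of the 10 genes (y axis); black marks an adjusted p under 0.05 and grey the rest. BIK alone is black, at 0.77, and the intervals of BIK, PMAIP1 and BAK1 leave out 0 before adjustment for the number of genes.

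None of the 3 anti-apoptotic genes passed, and none reached an unadjusted p under 0.05 (limma). MCL1 encodes a short-lived protein that holds BAK1 and is the main partner of NOXA. It stood at 7.31 and 7.29 in shControl and at 7.59, 7.60 and 7.38 in shRB (probe set 16692775, chromosome 1). All shRB arrays were above the shControl arrays, with a gap of 0.07. The difference was 0.22 (SE 0.15, 95% interval -0.11 to 0.55, limma adjusted p = 0.465).

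BCL2L1 encodes BCL-XL and, by alternative splicing, a shorter pro-apoptotic form, and 1 probe set cannot tell these forms apart. It was at 7.27 and 7.42 in shControl and at 7.20, 7.30 and 7.06 in shRB (probe set 16918244, chromosome 20). The groups overlapped, and the difference was -0.16 (SE 0.15, 95% interval -0.49 to 0.17, limma adjusted p = 0.615). It was -0.09 without shControl replicate 2 and -0.10 without shRB replicate 3. BCL2, the founding member of the family, was at 4.94 and 5.28 in shControl and at 4.69, 4.98 and 5.04 in shRB (probe set 16855673, chromosome 18). Its probe set lay nearest the floor of the 10, below the median gene, so its difference of -0.20 (SE 0.17, 95% interval -0.58 to 0.17, limma adjusted p = 0.570) is the most compressed by the apparent constant. With 16 taken off, it retained 0.755 of its shControl level in shRB cells. Without shControl replicate 1 or 2 the BCL2 difference was -0.37 or -0.03, and without shRB replicate 1 it was -0.10. On the deposited scale, the intervals of BCL2 and BCL2L1 leave room for falls of up to 0.58 and 0.49, and that of MCL1 for a rise of up to 0.55. These intervals cover the array-to-array spread alone. For BCL2 the apparent constant compresses the interval too, so it sets no bound on the fold change. With 16 subtracted and 1 added, the BCL2 difference was -0.38 (SE 0.32).

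The shControl arrays stood further apart than those of the median gene (0.22) in 7 of the 10 genes, and the shRB arrays further apart than those of the median gene (0.26) in 4. A distance between 2 arrays and a range over 3 are not comparable, so these medians are not set against each other. Over all genes, the shControl arrays correlated at r = 0.966, the shRB arrays at 0.983 to 0.986, and arrays of different groups at 0.955 to 0.970. Replicate 1 was the higher shControl array in 6 of the 10 genes: PMAIP1, BBC3, BAD, BAX, BAK1 and MCL1. In PMAIP1, BBC3, BAD and BAX the pair differed by 0.61, 1.08, 0.59 and 0.50. BIK, BID, BCL2 and BCL2L1 had replicate 2 higher, by 0.36, 0.53, 0.34 and 0.15. With 2 shControl arrays, the data do not show which of them is closer to the typical irradiated control.

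**Figure D3:**
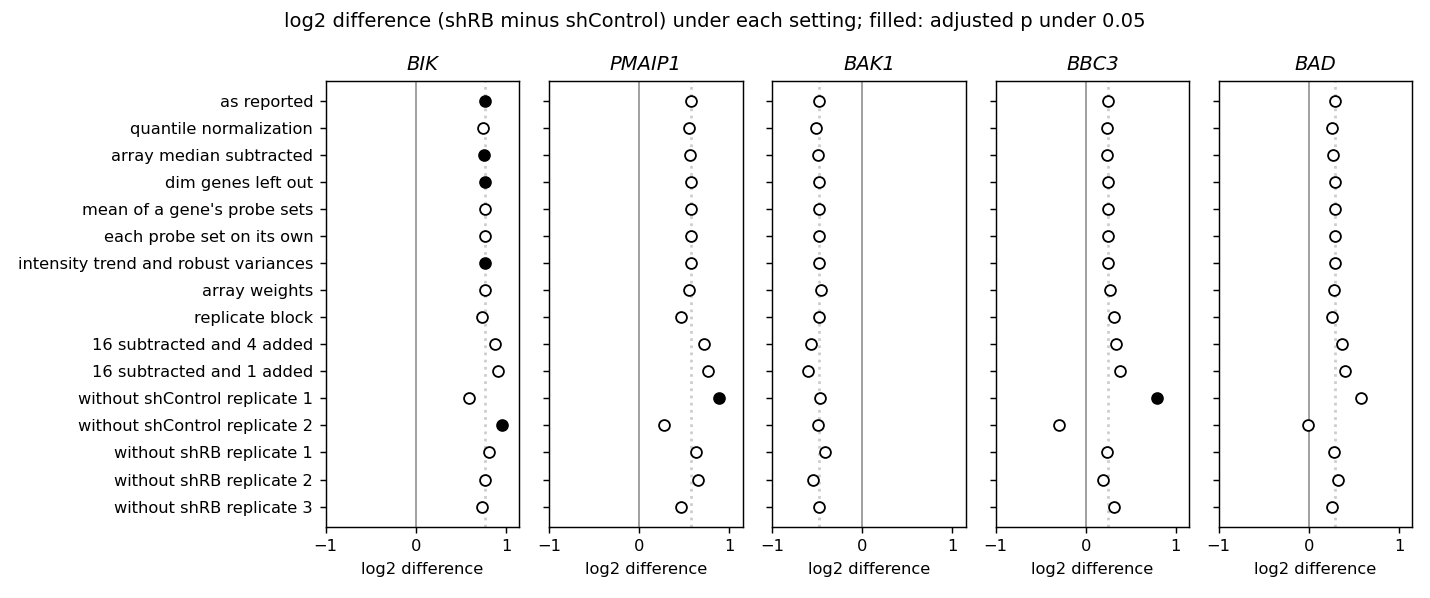
Log2 difference, shRB minus shControl (x axis), of BIK, PMAIP1, BAK1, BBC3 and BAD under the reported fit and 15 alternative settings (y axis); filled points have an adjusted p under 0.05 and the dotted line is the reported value. BIK stays between 0.59 and 0.95 and BAK1 between -0.60 and -0.41, whereas BBC3 moves from 0.79 to -0.29 with the choice of shControl array.

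The genes with the most similar profiles were sought among the 7406 genes at or above the median level, by Euclidean distance between log2 values over the 5 arrays, each gene centred on its own mean. For BIK these were EIF5A2 (distance 0.12, difference 0.67, adjusted p = 0.0744), UBE2NL (0.15, 0.65, 0.0697) and AEN, a p53-induced nuclease (0.16, 0.67, 0.0679). For BAK1 they were the pseudogene DSTNP2 (distance 0.06, difference -0.46), PTTG1IP (0.08, -0.48) and the zinc finger gene ZNF460 (0.09, -0.48), with adjusted p-values of 0.129 to 0.149. For PMAIP1 they were MBNL3, a splicing regulator (distance 0.09, difference 0.57), the ceramide-1-phosphate carrier CPTP (0.09, 0.54) and RABIF (0.13, 0.67), with adjusted p-values of 0.136 to 0.190. None of these 9 genes passed, beside 1.07% of all genes. They were chosen by likeness over these same 5 arrays, so their differences follow from that choice and are no separate result.

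Genes count as measured here where a probe set carried their name, and 28772 of 44607 probe sets were left without one. A gene that was not measured may thus still be on the array. Around the 10 genes, 62 of 107 listed genes of the pathway were measured, and none passed limma's test over all genes. At an unadjusted p under 0.05, 4 were higher and 2 lower, beside 10.9% and 7.22% of all genes. Their median difference was 0.03, and 32 were positive and 30 negative. Arrays did not overlap in 18 of the 62 that were higher and 12 that were lower, beside 20.6% and 15.4% of all genes.

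Of the other BCL2 family genes, 11 of 14 were measured, with 6 positive and 5 negative differences and a median of 0.01. BCL2L14, a divergent family member, rested near the floor on shControl arrays (4.14 and 4.39, against 4.43, 4.98 and 4.80 in shRB; difference 0.47, adjusted p = 0.212). BOK, an effector-like member, differed by 0.39 (adjusted p = 0.336). BCL2L11, which encodes the BH3-only protein BIM, stood at 6.01 and 6.09 (difference 0.09, adjusted p = 0.872), and BMF, a BH3-only gene linked to the cytoskeleton, at 5.63 and 5.64. The mitophagy receptors BNIP3 and BNIP3L differed by -0.26 and -0.16.

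Downstream of the mitochondrial pore, 9 of 22 genes of the apoptosome, the caspases and their inhibitors had a named probe set, none of them a caspase. BIRC6, a large inhibitor-of-apoptosis protein, was at 6.72 and 6.67 in shControl and at 6.93, 7.24 and 7.18 in shRB, so the groups did not overlap (difference 0.42, adjusted p = 0.194). CFLAR, an inhibitor of caspase-8 activation, was lower on all shRB arrays (5.76 to 6.10, against 6.24 and 6.41; difference -0.34, adjusted p = 0.301). APAF1, the scaffold of the apoptosome, and XIAP, the direct caspase inhibitor, differed by -0.07 and -0.02. At the death receptors, 2 of 11 genes were measured, the adaptors TRADD (0.35, adjusted p = 0.239) and FADD (0.25, adjusted p = 0.442).

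At the outer mitochondrial membrane, all 10 listed partners were measured, with 5 positive and 5 negative differences. TSPO, a cholesterol-binding membrane protein, differed by 0.35 (adjusted p = 0.279) and the fusion factor MFN2 by -0.31 (adjusted p = 0.344). VDAC2, the channel that binds BAK1, stood at 8.19 in shControl and 8.15 in shRB (difference -0.04).

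Of the enzymes listed for control of family protein stability, 8 of 12 were measured and 6 had positive differences, with a median of 0.27. DESI2, of the desumoylating isopeptidase family, differed by 0.47 (adjusted p = 0.174) and BTRC, a substrate receptor of ubiquitin ligases, by 0.31 (adjusted p = 0.300). Of the BAD kinases, phosphatases and 14-3-3 proteins, 6 of 21 were measured. Of these, AKT1, a survival kinase that phosphorylates BAD, was lower on all shRB arrays (difference -0.34, adjusted p = 0.316), and PIM1, a further BAD kinase, differed by 0.33 (adjusted p = 0.336). PIM1 lay near the floor, at 4.26 and 4.75 in shControl and at 4.92, 4.83 and 4.75 in shRB.

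Among transcription factors that act on these genes, 16 of 17 were measured, with 7 positive and 9 negative differences and a median of -0.06. Of the 16, 6 were lower on every shRB array and 2 were higher, beside 15.4% and 20.6% of all genes. NFKB1 differed by -0.41 (adjusted p = 0.247) and JUN by -0.35 (adjusted p = 0.250), both among the 6. E2F1, a direct partner of the RB protein, stood at 5.15 in shControl and 5.43 in shRB (difference 0.27, adjusted p = 0.359). It was higher on every shRB array.

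**Figure D4:**
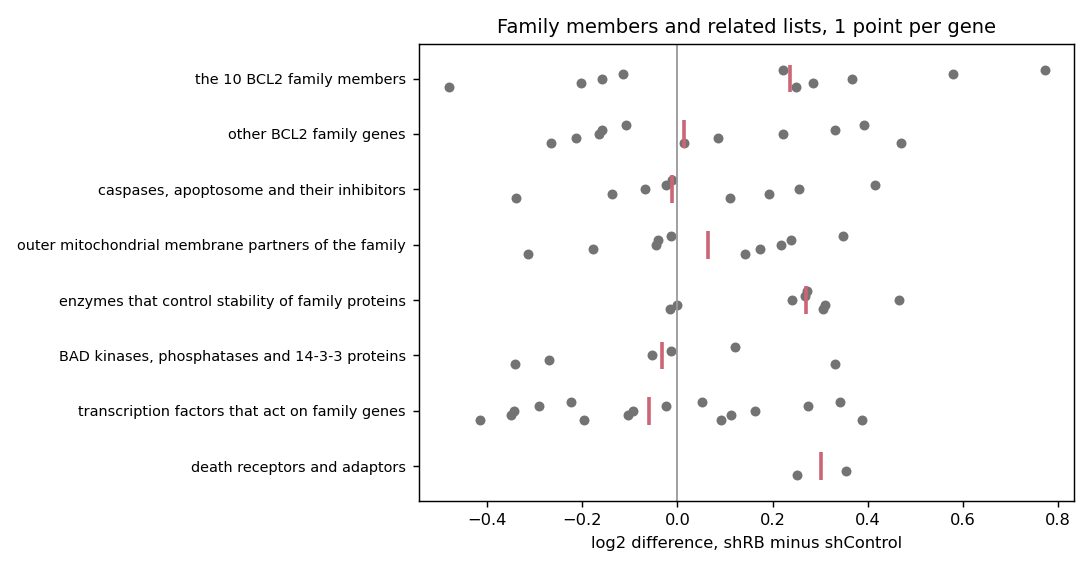
Log2 difference, shRB minus shControl (x axis), of each measured gene (grey points) in the 10 BCL2 family genes and 7 related lists (y axis), with the median of each list as a red bar; vertical offsets of points only separate them. The related lists span -0.41 to 0.47, and BIK, PMAIP1 and BAK1 lie outside that range.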

How the data were processed

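Transcript levels were measured on 5 single-colour whole-transcript arrays (2 shControl, 3 shRB), grouped by the sample titles. The authors deposited linear intensities, 1 per probe set. How they were summarised and normalized, and with which software and build, is not given in the sources used here. Per the labels' protocols, the cDNA was fragmented and labelled with biotin. Of 44607 probe sets, the platform annotation gave 15835 exactly 1 symbol and 0 several, and left 28772 without a name here. All named ones matched the RefSeq gene table of GRCh38.p14 by Entrez identifier. For the 651 genes with several probe sets the one with the highest mean log2 intensity was used, leaving 14812 genes with no filter; each of the 10 family genes had 1 probe set. Log2 intensities were compared with limma 3.58.1 under R 4.3.3, by lmFit and eBayes on the group term alone. Tests were two-sided, and p-values were adjusted over all genes by Benjamini-Hochberg. All adjusted p-values come from this test unless a setting is named. The fit was tested on simulated data.

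The 10 genes and the pathway and marker lists were chosen with earlier results of these data known. The rule for named genes took all 10, RB1, from each pathway list any gene that passed and otherwise the 2 with the smallest p, and the 3 nearest profiles of BIK, BAK1 and PMAIP1. BCL2L11, BMF, BNIP3, BNIP3L, APAF1, XIAP, VDAC2, E2F1 and the cell type markers given by name were named outside it, after their values were seen. Alternatives were other normalizations, a filter on dim genes, other treatment of probe sets, other variance models, the replicate number as a block, removal of the apparent constant and leaving out each array. The number of arrays limits the precision.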

Additional observations from a re-analysis of the deposited data

How the results depend on the processing

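Over the 10 genes and 15 alternative settings, 133 of 149 differences kept their direction and their side of the threshold; BCL2 is not among the genes left when dim genes are dropped. BIK stayed positive throughout and passed in 4 settings: array medians subtracted, dim genes left out, an intensity trend with robust variances, and without shControl replicate 2. In the other 11 it did not pass, at adjusted p-values of 0.0507 to 0.240. Of all genes tested, 1.53% passed with array medians subtracted, 5.20% with dim genes left out and 2.88% with the intensity trend, beside 1.07% as reported. In the settings that kept both shControl arrays and in which BIK did not pass, the share was 0% to 0.938%. Directions reversed without shControl replicate 2 for BAD, BBC3 and BID. Leaving out 1 array moved BAD from -0.012 to 0.58, BBC3 from -0.29 to 0.79 and BID from -0.38 to 0.15. Without shControl replicate 1, BBC3 and PMAIP1 passed and BIK did not.

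The number of the 10 genes that passed, 1 as reported, was 0 after quantile normalization, with a mean of a gene's probe sets and with each probe set on its own. It was also 0 with array weights, with the replicate block, and with 16 subtracted and 4 or 1 added. In each of these settings 2 or 3 of the 10 had an unadjusted p under 0.05 (limma). Beside them stood 1756 to 2701 of 14812 genes, or 7230 of 44607 probe sets with each probe set on its own. Without shRB replicate 1, 2 or 3 the number of the 10 that passed was 0. The count over all genes, 159 as reported (1.07% of those tested), was 385 of 7406 genes with dim genes left out (5.20%), 426 with an intensity trend and robust variances and 88 with array weights. With each probe set on its own, 340 of 44607 probe sets passed (0.762%). The count of genes was 13 with 16 subtracted and 4 added, and 0 with 1 added (2213 at an unadjusted p under 0.05). The share of increases among called genes moved from 64.8% to 30.8% of 13 genes with 16 subtracted and 4 added, 33.3% with the replicate block, and 42.9%, 40.9% and 36.4% without shRB replicate 1, 2 and 3. Leaving out 1 array gave 22 to 411 genes, and the replicate block gave 24. Same-numbered arrays did not deviate together (r = -0.02 and 0.05 between groups), so the numbers were not taken to pair the samples. Which cause lies behind each move was not tested. Signal close to the floor limits what can be said of dim genes such as BCL2, BCL2L14 and PIM1. TRADD (mean 5.13) also lay below the median gene (5.25).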
